A study of Mus musculus with 4 samples.

Results

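The spliceosome removes introns from pre-mRNA. Its core is made of snRNPs, particles of a small nuclear RNA and proteins; U2AF and the SF3A and SF3B complexes of the U2 snRNP mark the 3′ splice site and the branch point, PRPF proteins build and drive the later complexes, and SR proteins and hnRNP proteins bind exons and introns and tune which splice sites are used. Genes of this machinery (SF3B1, SRSF2 and U2AF1 among them) are recurrently mutated in human myeloid neoplasms, and many SR and hnRNP genes regulate their own mRNA by switching in exons that lead to its decay. The mRNA levels of 68 mouse splicing factor genes are described here in leukemia-initiating cells (LICs) labelled as with and without CD274 (PD-L1), the ligand of the immune checkpoint receptor PD-1. They were chosen by name: symbols that start with Srsf and a digit, Hnrnp, Sf3a, Sf3b, Snrp, U2af or Prpf matched 69 of the 27179 genes in the table, and 1 name with the pseudogene mark -ps was left out. The 68 genes comprise 11 SR proteins, 20 hnRNP proteins, 9 SF3A and SF3B subunits, 12 snRNP proteins, 3 U2AF genes and 13 PRPF proteins.

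LICs were sorted by flow cytometry from the bone marrow of mice with MLL-AF9-induced acute myeloid leukemia, in which lineage-negative fetal liver cells that express the fusion oncogene MLL-AF9 from a retrovirus with YFP are transplanted into lethally irradiated C57BL/6 recipients. Both groups carry this oncogene and differ in the labels by genotype: 2 libraries are labelled WT and 2 are labelled CD274-null (CD274-/-), all of strain C57BL/6 and an age of 6 weeks. The labels do not say whether that age is of donors or recipients, or whether the libraries of a group come from separate mice, so p-values measure only the spread between these libraries, which may be technical. RNA was sequenced from TruSeq v2 libraries and deposited as FPKM, fragments scaled by gene length and by mapped reads. The study describes sequencing of WT and CD274-null LICs, while its sequencing methods name tissue as the source of the total RNA.

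The libraries rest on 8452662 to 11048767 reads recovered from the FPKM steps. Cd274 itself was at 2.80 and 0.945 FPKM under the WT label, against 1.43 and 2.29 under the CD274-null label; it did not separate the groups, and every direction below rests on the labels. Of the markers of the sort and the leukemia, Itgam (Mac-1) lay between 100 and 174 FPKM, Kit between 6.59 and 19.5, Hoxa9 between 71.3 and 75.8 and Meis1 between 35.6 and 44.6. Markers of other cell types differed between libraries as well. The summed FPKM of 7 plasma cell markers (2 above the filter) was 9.37 and 9.02 in WT LICs against 228 and 202 in CD274-null LICs, almost all of it Igkc, and 10 T and NK cell markers (3 above the filter) summed to 33.3 and 14.5 against 71.9 and 89.3, mostly Nkg7. The 10 B cell markers summed to 13.0, 37.1, 37.4 and 40.7 FPKM, with 1 of 10 above the filter, and the 9 erythroid markers in the table to 3.15, 55.7, 4.92 and 0.589, with Slc4a1 at 0 in all 4 libraries. Xist, which is transcribed in female cells, ranged from 2.57 FPKM in WT replicate 1 to 107 in CD274-null replicate 1. The Y-linked gene Ddx3y had 27.1 and 18.1 FPKM in WT LICs against 0.0244 and 6.28 in CD274-null LICs. WT replicate 2 (Xist 51.1 FPKM) and CD274-null replicate 2 (Xist 68.7 FPKM) thus held RNA of both kinds. WT replicate 1 also held both, with Xist at a much lower level but from 532 recovered reads. Whether donors or labels are mixed cannot be told from these values. The part of these differences in the results on splicing factors was not tested, and in bulk RNA fewer cells of a type and less RNA per cell cannot be told apart.

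The splicing factor genes were among the well expressed genes of these LICs. Their summed FPKM was 6236 and 5338 in WT LICs against 6246 and 6199 in CD274-null LICs, which is 1.22%, 1.08%, 1.22% and 1.18% of all FPKM. The mean over the 4 libraries was at least 10 FPKM for 63 of the 68 genes, and 64 had at least 100 recovered reads in every library. The median gene of the 67 above the filter (a mean of at least 0.5 FPKM) had a mean of 65.7 FPKM, against 12 over all 13230 genes tested. The other 5 genes, below 10 FPKM on average, were Hnrnpa3, Prpf4, Prpf40b, Srsf12 and Snrpn, and Snrpn was the only gene below the filter.

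**Figure D1:**
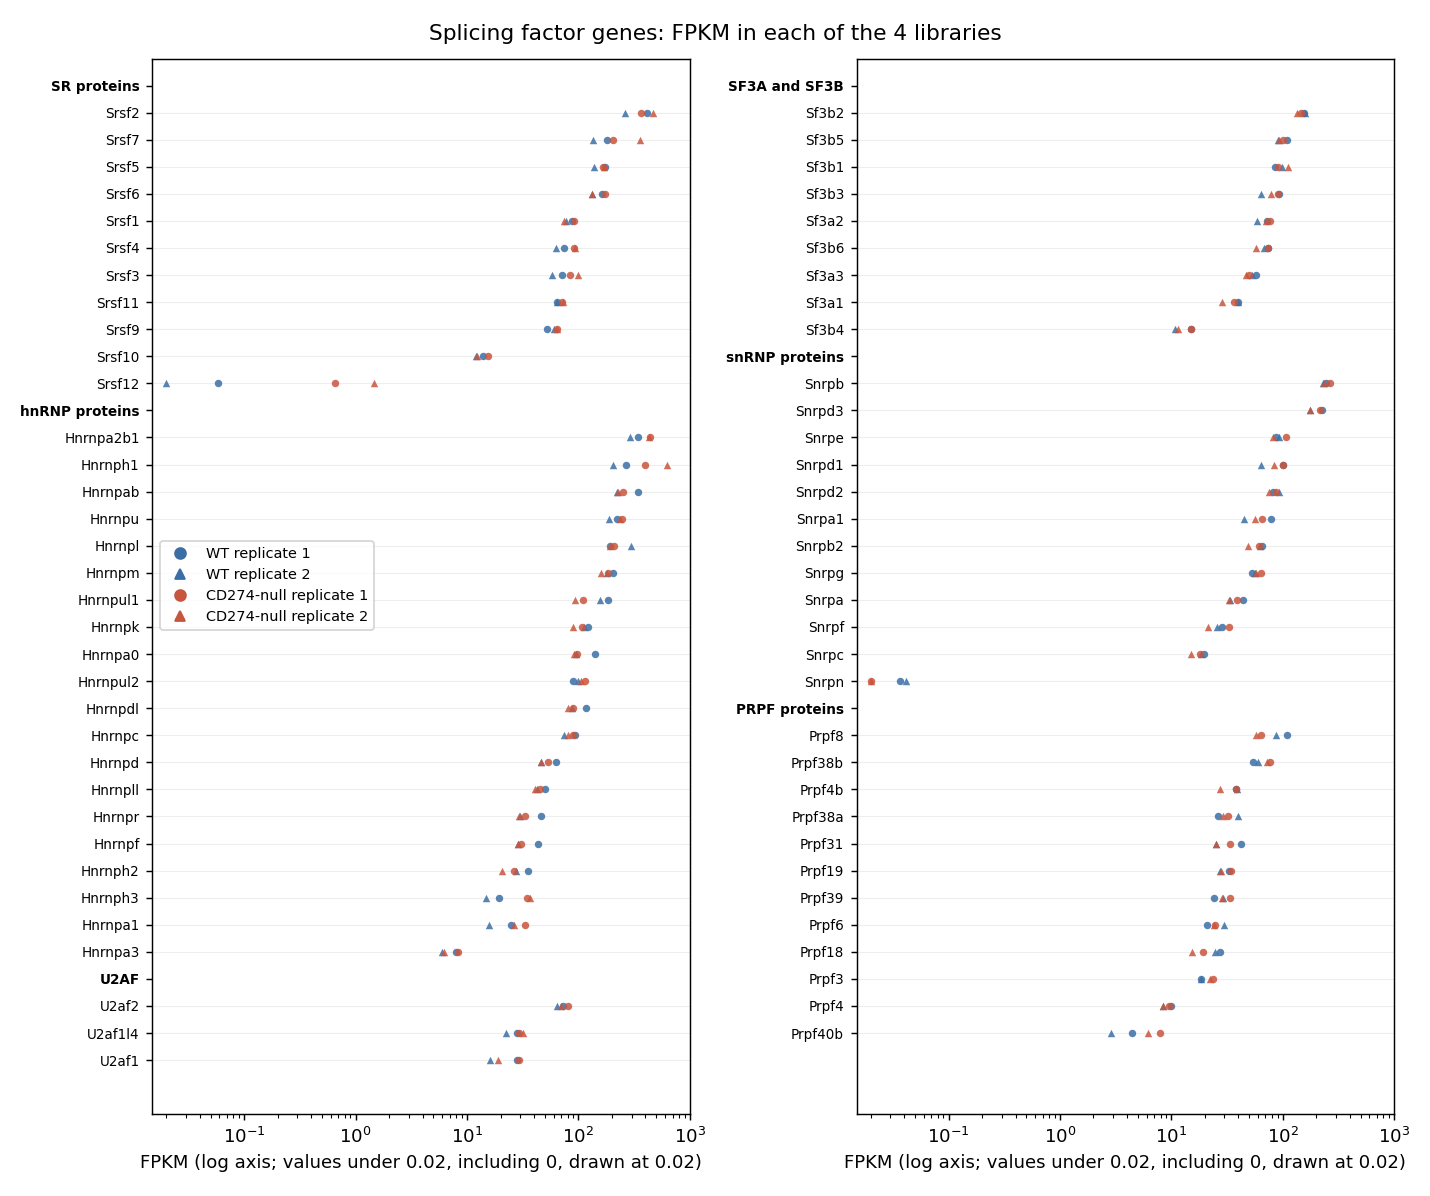
FPKM of 67 of the 68 splicing factor genes in the 4 libraries, on a log axis, grouped by family and ordered by the mean over libraries. Blue marks are WT, red marks CD274-null, circles replicate 1 and triangles replicate 2; the 4 marks of most genes lie close together, while Srsf12 and Snrpn lie apart from the rest at the low end.

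Between the groups, most splicing factor genes differed little. In limma on log2(FPKM + 0.5), in which a fold change is CD274-null against WT, 58 of the 67 genes tested (86.6%) differed by less than 1.5-fold, against 73.6% of all genes tested and 80.4% of those with a mean of at least 10 FPKM. The median log2 fold change of the 67 genes was 0.03 (0.01 over all genes tested) and the median absolute log2 fold change was 0.20 (0.33 over all, 0.28 over those of at least 10 FPKM). The 95% confidence interval of the log2 fold change had a median half-width of 0.56, and for 54 of the 67 genes (80.6%, against 40.7% of all and 59.5% of those of at least 10 FPKM) it lay wholly within a 2-fold change in either direction. For these 54 genes, a change of more than 2-fold lies outside the interval. Changes that lie inside the interval of a gene are not excluded with 2 libraries per group.

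Candidates, by the thresholds of the study, are genes that differ by more than 1.5-fold with an unadjusted p under 0.01. There were 480 candidates among 13230 genes (3.63%), 316 higher (2.39%) and 164 lower (1.24%) in CD274-null LICs. This split depended on scaling: it was 253 higher and 210 lower after quantile normalization, 247 and 200 after scaling to equal medians, and 162 and 160 after a correction for GC content. Of the 67 splicing factor genes tested, 2 were candidates (2.99%), 1 higher (Hnrnph3) and 1 lower. An unadjusted p under 0.05 was reached by 8 of them (11.9%, against 13.7% of all genes), 4 higher and 4 lower. After Benjamini-Hochberg adjustment over all genes in limma, 0 splicing factor genes had an adjusted p under 0.05, against 10 genes of the whole table (0.0756%). By the values alone, 17 of the 67 (25.4%) had both CD274-null values above both WT values, against 25.6% of all genes, and 11 (16.4%) had both below, against 21.8%. Each of these shares lay close to or below the share over all genes.

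**Figure D2:**
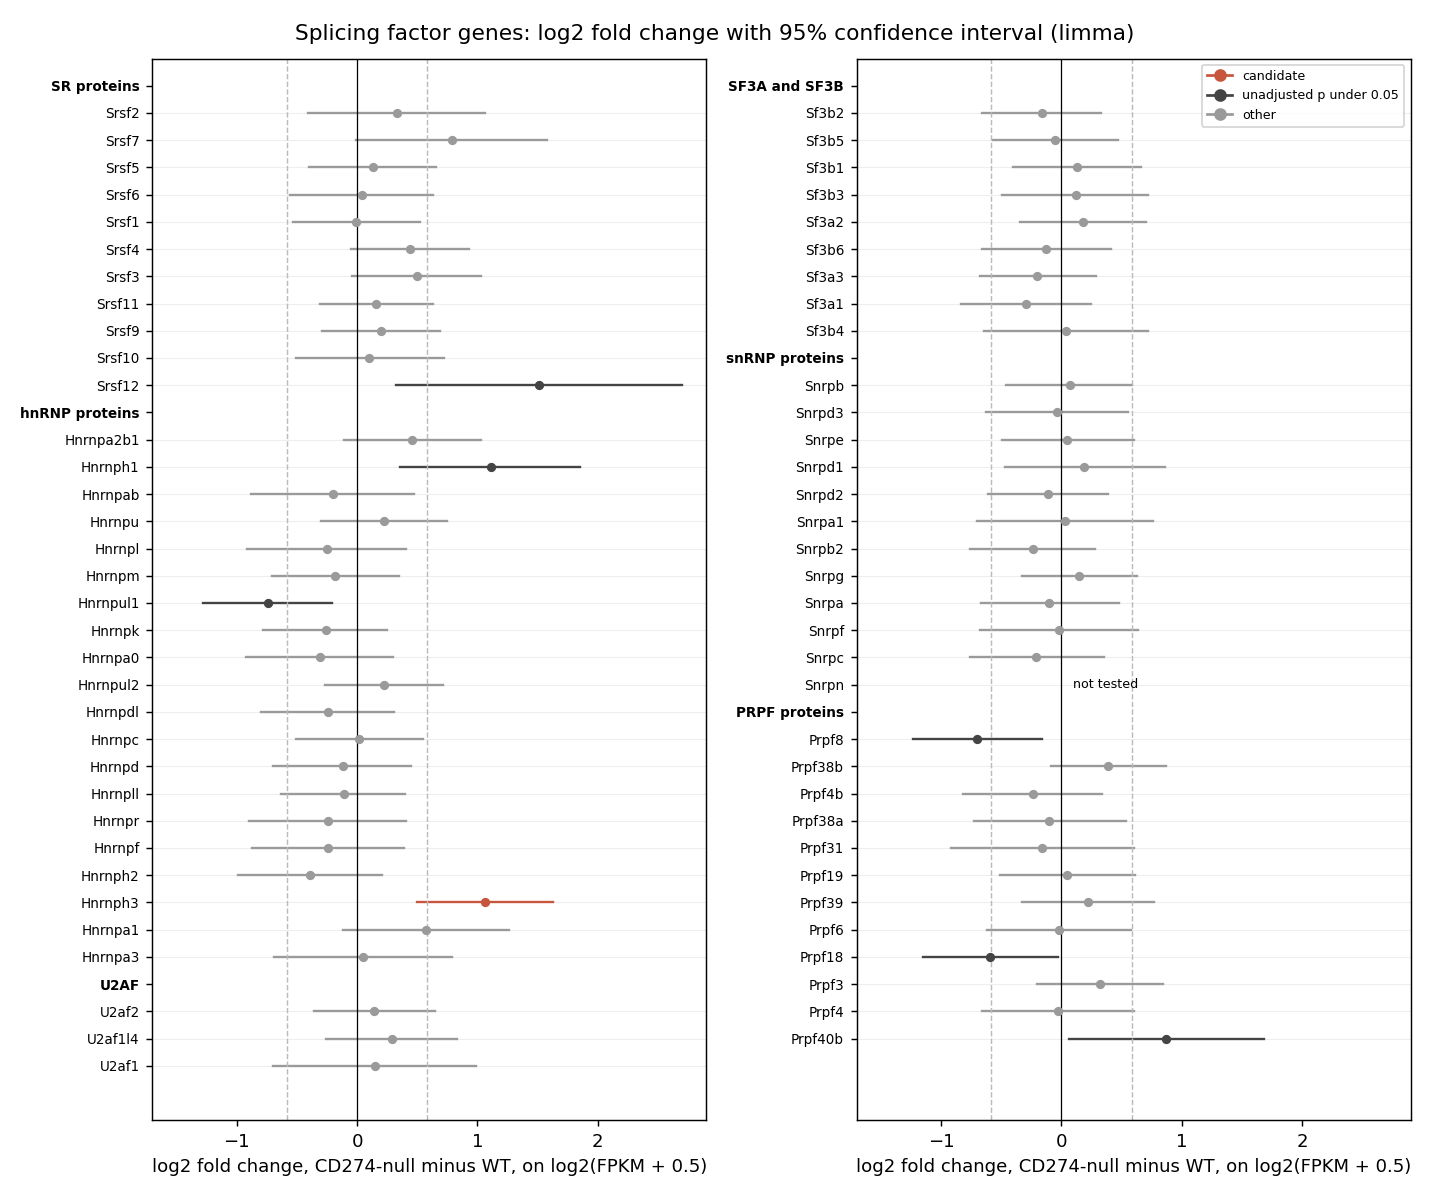
Log2 fold change (CD274-null minus WT, on log2(FPKM + 0.5)) of 66 splicing factor genes with its 95% confidence interval from limma; dashed lines mark 1.5-fold. Snrpn is listed as not tested. Of the genes drawn, the candidate Hnrnph3 is red, 6 more with an unadjusted p under 0.05 are dark grey, and most intervals cross 0.

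Of the hnRNP proteins, the H/F family held the highest log2 fold changes. These proteins bind runs of G in pre-mRNA and act as enhancers or repressors of exons depending on where they bind. Hnrnph3 (NCBI gene 432467; chromosome 10 of GRCm38, 63014664 to 63023980) had FPKM values of 19.3 and 14.7 in WT LICs against 34.8 and 36.7 in CD274-null LICs. Both CD274-null values were well above both WT values, and its log2 fold change was 1.06 (SE 0.23, 95% interval 0.50 to 1.63, limma adjusted p = 0.251). The call was lost without WT replicate 2, CD274-null replicate 1 or CD274-null replicate 2, where the log2 fold change was 0.87, 1.10 and 1.02. Hnrnph1 (NCBI gene 59013; chromosome 11, 50375257 to 50386528), the most abundant member of the family, had 265 and 203 FPKM in WT LICs against 399 and 626 in CD274-null LICs. The groups did not overlap, but the CD274-null libraries also lay far from each other (mean 513 ± 160 FPKM, SD, n = 2), and with a log2 fold change of 1.11 (SE 0.31, 95% interval 0.36 to 1.85, limma adjusted p = 0.279) Hnrnph1 lay just outside the p threshold of candidates. With limma's voom on the recovered reads it was a candidate. In a linear model that takes each gene's spread from that gene alone, its unadjusted p was 0.0984. Without CD274-null replicate 2 its log2 fold change was 0.78. The other 2 genes of the family had values in the opposite direction. Hnrnph2 had 35.1 and 27.3 FPKM in WT LICs against 26.5 and 20.7 in CD274-null LICs, a log2 fold change of −0.39 (limma adjusted p = 0.518). Hnrnpf had 43.0 and 28.6 against 30.3 and 28.9 FPKM, with overlapping groups and a log2 fold change of −0.24 (limma adjusted p = 0.701). Of the 50-base windows of its transcript, 67.3% also occur in transcripts of other genes, so its FPKM depends on how shared reads were placed; for Hnrnph1 and Hnrnph3 the share was 4.67% and 3.10%.

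Hnrnpul1, related to the nuclear scaffold protein hnRNP U and known for roles in RNA transport and the DNA damage response, had the lowest log2 fold change among the hnRNP genes. Hnrnpul1 (NCBI gene 232989; chromosome 7, 25721161 to 25756268) had 185 and 157 FPKM in WT LICs against 111 and 92.7 in CD274-null LICs. Both CD274-null values lay below both WT values, with a log2 fold change of −0.74 (SE 0.22, 95% interval −1.28 to −0.21, limma adjusted p = 0.295). Its paralog Hnrnpul2 had 88.9 and 100 against 114 and 106 FPKM, and Hnrnpu itself 223 and 190 against 244 and 237. For both, the CD274-null values were slightly higher, with a log2 fold change of 0.22 each (limma adjusted p = 0.650 and 0.673).

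The remaining hnRNP genes are summarized by their values. Hnrnpa2b1, which with Hnrnpa1 binds exonic and intronic silencers, had the highest mean of the 20 hnRNP genes, with 346 and 289 FPKM in WT LICs against 436 and 433 in CD274-null LICs (log2 fold change 0.46, limma adjusted p = 0.439). Hnrnpa1 had 24.7 and 15.9 against 33.3 and 26.5 FPKM, and 46.4% of its transcript windows occur in other genes, so part of its reads may have been lost or shared. Hnrnpa3, the lowest, had 7.98 and 5.96 against 8.27 and 6.17 FPKM, with overlapping groups. Hnrnpk, which binds C-rich RNA, had 123 and 113 against 108 and 89.9 FPKM, and 37.8% of its windows occur in other genes, so its values are uncertain. In all, 8 hnRNP genes had a log2 fold change above 0 and 12 below, with a median of −0.15, and the groups did not overlap for 6 higher (30%, against 25.6% of all genes) and 3 lower genes (15%, against 21.8%). This balance rested on WT replicate 1, which was the highest library for 12 of the 20: without it, 13 were above 0 and 7 below, with a median of 0.08. With the GC correction, 10 were above and 10 below.

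**Figure D3:**
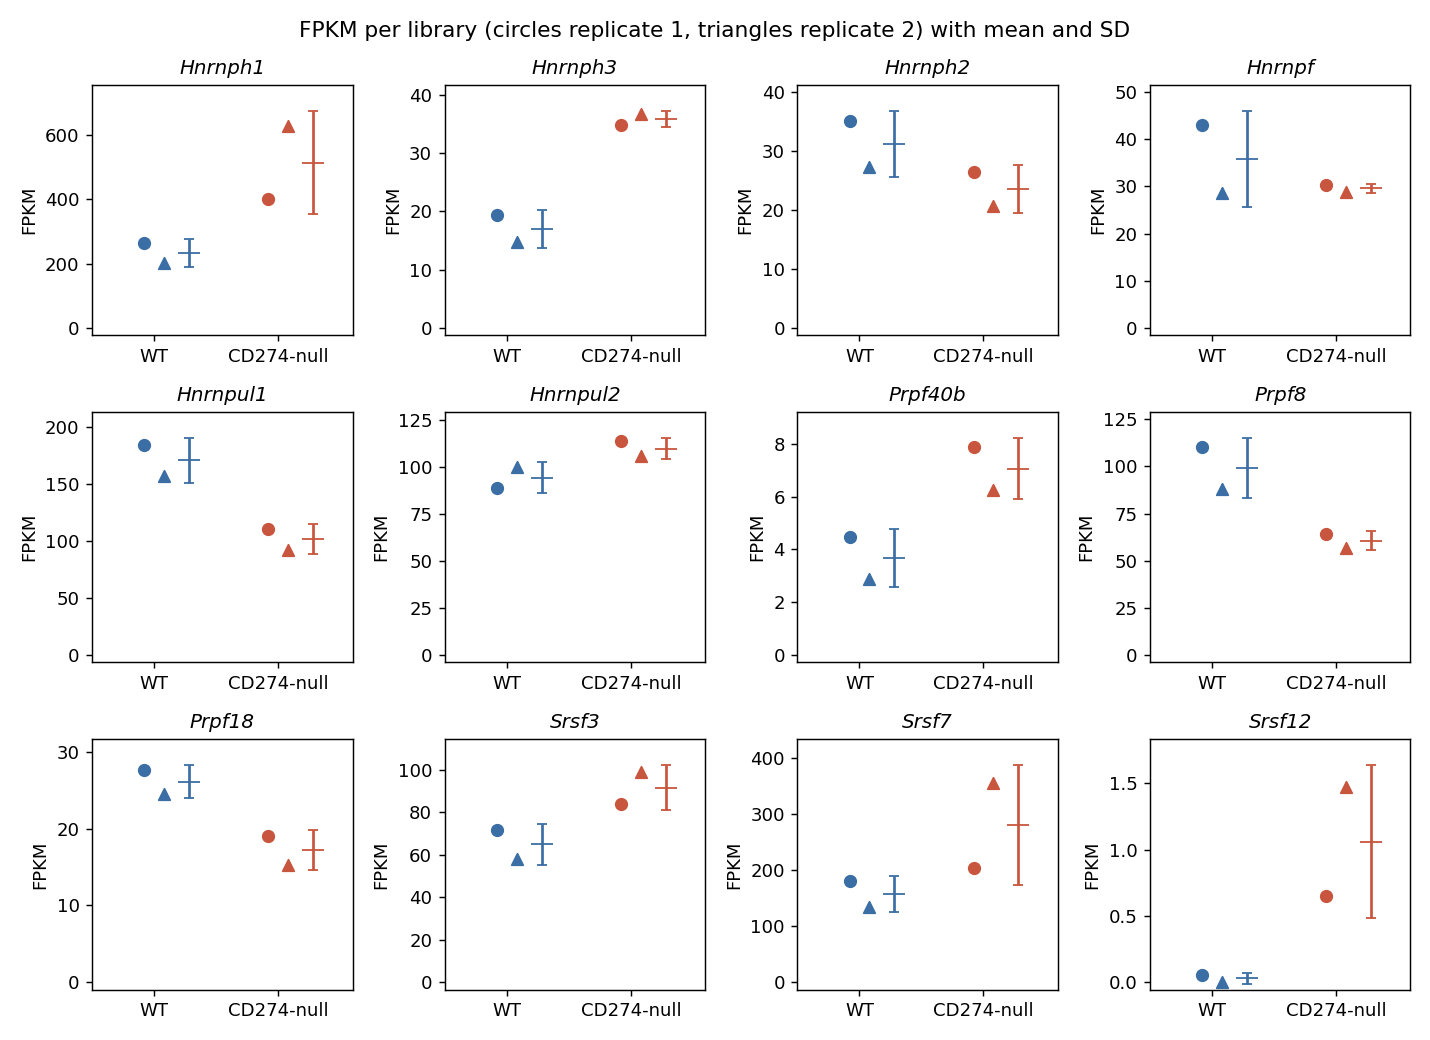
FPKM per library (circles replicate 1, triangles replicate 2) of 12 genes, with the mean and SD (n = 2) beside them; each axis starts at or just below 0. The CD274-null values lie above the WT values for Hnrnph1, Hnrnph3, Hnrnpul2, Prpf40b, Srsf3, Srsf7 and Srsf12, below for Hnrnph2, Hnrnpul1, Prpf8 and Prpf18, and overlap for Hnrnpf.

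The sequences before an annotated transcript start of 4 of the genes with an unadjusted p under 0.05 are shown because their mRNA levels differed in opposite directions. The RefSeq promoter table (GRCm38.p6), which covers 250 bases before to 50 after each annotated start, matched 59 of the 68 genes with 80 windows, since some genes have several starts. Both strands were searched for the GC box, whose letters here are GGGCGG, and for the CCAAT box. The core of ETS factor sites was searched as CCGGAAG and the TATA box as TATAAA. The E-box was searched as CACGTG and the YY1 motif as AAGATGG. No printed match overlaps another, and a match is a run of letters, not a shown binding site. The 150 bases before the start are printed 5′ to 3′ on the strand of the gene, with matches in capitals. For Hnrnph1, which has 5 windows, it is the window that holds the most GENCODE transcript starts (6); the only window of Prpf8 holds 0 of them, and those of Hnrnph3 and Hnrnpul1 hold 3 and 2. They lie at chr11:50377647-50377796 (plus strand) for Hnrnph1, chr10:63023850-63023999 (minus strand) for Hnrnph3, chr7:25754760-25754909 (minus strand) for Hnrnpul1 and chr11:75486627-75486776 (plus strand) for Prpf8. By the gene coordinates, the stretches of Hnrnph1 and Hnrnpul1 lie inside the gene, and that of Hnrnph3 lies mostly inside it. Only the stretch of Prpf8 lies wholly before its gene.
Hnrnph1: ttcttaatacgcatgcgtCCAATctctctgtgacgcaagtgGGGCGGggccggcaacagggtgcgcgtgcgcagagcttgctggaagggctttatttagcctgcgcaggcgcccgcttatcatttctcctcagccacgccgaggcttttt
Hnrnph3: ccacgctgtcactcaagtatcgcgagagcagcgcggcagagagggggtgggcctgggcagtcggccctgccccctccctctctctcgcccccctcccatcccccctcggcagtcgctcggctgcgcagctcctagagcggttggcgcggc
Hnrnpul1: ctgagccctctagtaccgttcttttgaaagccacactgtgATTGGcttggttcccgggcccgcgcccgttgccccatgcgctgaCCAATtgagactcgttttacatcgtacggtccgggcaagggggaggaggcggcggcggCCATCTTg
Prpf8: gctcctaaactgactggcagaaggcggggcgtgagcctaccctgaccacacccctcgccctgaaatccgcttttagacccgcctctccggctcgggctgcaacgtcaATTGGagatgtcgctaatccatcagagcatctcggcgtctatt
The capitals mark a CCAAT box and a GC box in Hnrnph1, a CCAAT box on each strand and the YY1 letters on the other strand in Hnrnpul1, and a CCAAT box on the other strand in Prpf8; the 150 bases of Hnrnph3, 72.7% G and C, hold none of these letters. A GC box was present in the windows of 40 of the 59 splicing factor genes (67.8%), against 70.6% of 5410 protein-coding genes with a mean of at least 10 FPKM. A CCAAT box was present in 50.8% (43.1% of the expressed genes), the ETS core in 33.9% (25.5%), the E-box in 15.3% (13.0%), the TATA box in 11.9% (7.93%) and the YY1 letters in 5.08% (9.80%). Counted by window, the ETS core was in 31.2% of the 80 windows, against 8.86% of all 32851 windows in the table, which include genes not expressed in these cells. The GC box was in 63.7% (35.7% of all windows), the CCAAT box in 47.5% (37.4%) and the E-box in 13.8% (7.15%). The TATA box was in 8.75% (13.6%) and the YY1 letters in 3.75% (6.34%). The median GC content of the windows was 60.2%, against 52.7%. These shares are descriptions and were not tested.

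PRPF proteins act at several stages of spliceosome assembly, and as a group they had a median log2 fold change of −0.03, with 5 of 13 genes above 0 and 8 below. The balance turned to 7 above and 6 below with the GC correction (median 0.02), without WT replicate 1 (median 0.08) and without CD274-null replicate 2 (median 0.05). Of the 8 splicing factor genes with an unadjusted p under 0.05, 4 belong here, 3 of them lower and 1 higher in CD274-null LICs; they are 30.8% of the 13 PRPF genes, against 13.7% of all genes. With the GC correction, or in a linear model that takes each gene's spread from that gene alone, Prpf40b and Prpf18 no longer had an unadjusted p under 0.05, Prpf40b also lost it with either other filter, and Prpf18 with a limma fit whose variance was not tied to expression level or with the replicate number as a block.

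Prpf40b, a protein with WW domains thought to act with the U1 snRNP, was the lowest PRPF gene. Prpf40b (NCBI gene 54614; chromosome 15, 99295076 to 99317018) had 4.46 and 2.89 FPKM in WT LICs against 7.87 and 6.23 in CD274-null LICs, a log2 fold change of 0.87 (SE 0.33, 95% interval 0.06 to 1.68, limma adjusted p = 0.348). It rests on 163, 93, 220 and 196 recovered reads. Both CD274-null values lay above both WT values.

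Prpf8 is the large scaffold of the catalytic core and belongs to the U5 snRNP. Prpf8 (NCBI gene 192159; chromosome 11, 75486777 to 75509447) had 110 and 87.9 FPKM in WT LICs against 64.3 and 57.0 in CD274-null LICs, a log2 fold change of −0.70 (SE 0.22, 95% interval −1.23 to −0.16, limma adjusted p = 0.301). Prpf18, which acts in the last catalytic step, had 27.6 and 24.5 against 19.1 and 15.3 FPKM, with a log2 fold change of −0.59 (SE 0.23, limma adjusted p = 0.349). For both genes the groups were apart, and Prpf18 lay just past 1.5-fold. Transcripts of Prpf40b and Prpf8 share 0% of their 50-base windows with other genes, and those of Prpf18 share 0.317%.

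A further 9 PRPF genes differed by less than 1.5-fold. Prpf38b had 53.9 and 59.9 FPKM in WT LICs against 77.1 and 72.1 in CD274-null LICs (log2 fold change 0.39, limma adjusted p = 0.439), and Prpf3, a protein of the U4/U6 snRNP, had 18.3 and 18.3 against 23.9 and 22.1 (0.32, limma adjusted p = 0.537). Their CD274-null values were above both WT values. The other 7 overlapped between groups: Prpf4 and Prpf31 of the U4/U6 snRNP, Prpf6 of the tri-snRNP, the ubiquitin ligase Prpf19, the kinase Prpf4b, Prpf39 of the U1 snRNP and Prpf38a had log2 fold changes between −0.24 and 0.22. Of all 13 PRPF genes, 3 were higher without overlap (23.1%, against 25.6% of all genes) and 3 were lower (23.1%, against 21.8%).

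SR proteins have RNA-binding domains and a tail rich in arginine and serine; they bind exonic enhancers and recruit U1 and U2AF. Of the 11 SR genes, 10 had a log2 fold change above 0 and 1 below, with a median of 0.20, and 6 had both CD274-null values above both WT values (54.5%, against 25.6% of all genes) and 0 had both below. These counts include Srsf12, which passed the filter only through the CD274-null libraries; with a mean of at least 5 FPKM as the filter, which leaves it out, 9 of 10 were above 0. Of the 11, 0 were candidates (0%, against 3.63% of all genes), and 1 had an unadjusted p under 0.05 by limma (9.09%, against 13.7%). That gene is Srsf12. Their summed FPKM was 1291 and 1005 in WT LICs against 1332 and 1540 in CD274-null LICs, so WT replicate 1 lay close to CD274-null replicate 1. The count rested on the lower WT library: without WT replicate 2, 7 of the 11 were above 0, and without CD274-null replicate 1, 8 were. With the GC correction, 11 of 11 were above 0. Proliferation markers showed a like pattern, with 9 of 16 genes higher without overlap, 0 lower, and sums of 1296, 1078, 1407 and 1395 FPKM; its part in the SR values was not tested.

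Srsf7 and Srsf3 shuttle between nucleus and cytoplasm and link splicing to mRNA export. Srsf7 had 180 and 134 FPKM in WT LICs against 204 and 355 in CD274-null LICs, a log2 fold change of 0.79 (SE 0.33, 95% interval −0.01 to 1.58, limma adjusted p = 0.366). Its difference was carried mainly by CD274-null replicate 2, and it was 0.39 without that library. Srsf3 had 71.8 and 58.1 against 84.1 and 99.1 FPKM, with 31.5% of its windows also in other genes, and a log2 fold change of 0.50 (SE 0.22, limma adjusted p = 0.392). Srsf4 had 73.7 and 63.4 against 91.9 and 94.1 (0.44, limma adjusted p = 0.404), and 65.4% of its transcript windows occur in another gene. The groups did not overlap for these 3 genes, nor for Srsf9 and Srsf11, but their intervals include 0.

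Srsf2 (SC35), the SR gene with the highest mean, had 411 and 264 FPKM in WT LICs against 368 and 464 in CD274-null LICs, with overlapping groups (log2 fold change 0.33, limma adjusted p = 0.655). Of its transcript windows, 35.2% also occur in other genes, so its values are uncertain. Srsf1, the founding member of the family, had 87.6 and 78.1 against 91.9 and 73.8 FPKM, and its log2 fold change of −0.01 (95% interval −0.53 to 0.52) was the smallest of the group. Its paralog Srsf9 had 52.1 and 60.4 against 64.8 and 64.2 FPKM (0.20, 95% interval −0.29 to 0.69).

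Srsf12, a relative of Srsf10, was at the limit of detection in the WT libraries. Because its mean of 0.546 FPKM passed the filter through the CD274-null libraries alone, a difference was built into its selection, and its test and its place among the 8 genes with an unadjusted p under 0.05 are not support for one. Srsf12 (NCBI gene 272009; chromosome 4, 33208991 to 33233343) had 0.0588 and 0 FPKM in WT LICs against 0.654 and 1.47 in CD274-null LICs, from 2, 0, 17 and 43 recovered reads. Over the groups, 2 reads stand against 60, a ratio of 34.7 after scaling for depth, with an exact interval of 9.2 to 293 that covers counting error only. The ratio sums the reads of each group and rests on the same selection, so it is not support for a difference either. The pseudocount shrinks differences of such low genes, and on the log2(FPKM + 0.5) scale the log2 fold change was 1.51 (SE 0.49, limma adjusted p = 0.310).

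The SF3A and SF3B complexes, U2 snRNP subunits that hold the branch point, differed little between the groups. All 9 differed by less than 1.5-fold and all 9 intervals lay within 2-fold, with a median log2 fold change of −0.05, 4 above 0 and 5 below. The balance moved with the libraries, to 2 above and 7 below without WT replicate 2 (median −0.18) and to 5 and 4 without WT replicate 1 (median 0.03). Sf3b1, which contacts the branch point and is the subunit recurrently mutated in myeloid neoplasms, had 85.6 and 98.8 FPKM in WT LICs against 91.0 and 111 in CD274-null LICs (log2 fold change 0.13, 95% interval −0.40 to 0.66). Sf3b2, the highest, had 156 and 157 against 146 and 133 FPKM, Sf3a3 had 57.7 and 53.1 against 50.1 and 46.5, and Sf3a1 had 40 and 39.3 against 36.8 and 28.6. In these 3 genes both CD274-null values lay below both WT values, by −0.16, −0.20 and −0.29 on the log2 scale (limma adjusted p = 0.748, 0.686 and 0.589). They are 33.3% of the 9 genes, against 21.8% of all genes, and 0 of the 9 had both values above, against 25.6%. Sf3b4, the lowest, had 14.9 and 10.9 against 14.9 and 11.5 FPKM, and 51.2% of its transcript windows occur in other genes.

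The snRNP proteins include the Sm proteins (Snrpb, Snrpd1, Snrpd2, Snrpd3, Snrpe, Snrpf and Snrpg), which form the ring around the small nuclear RNAs, and proteins particular to U1 (Snrpa, Snrpc) or U2 (Snrpa1, Snrpb2). The 11 tested genes all differed by less than 1.5-fold, with log2 fold changes from −0.24 to 0.19 and a median of −0.02. The median turned with the libraries, to −0.19 without CD274-null replicate 1 (2 above 0 and 9 below) and to 0.14 without CD274-null replicate 2 (8 above and 3 below). Snrpb, the highest, had 243 and 232 FPKM in WT LICs against 264 and 234 in CD274-null LICs. Its paralog Snrpn, an imprinted gene that takes the place of Snrpb mainly in brain, had 0.0363 and 0.0413 FPKM in the WT libraries, 1 read each, and 0 in both CD274-null libraries, and was not tested. Snrpb therefore supplied nearly all mRNA of this pair in all 4 libraries. Snrpc, the lowest tested, had 19.7 and 18.5 against 18.0 and 15.0 FPKM, Snrpb2 had 65.5 and 63.0 against 60.9 and 48.4, and Snrpg had 52.8 and 56.5 against 63.6 and 57.8. Their groups did not overlap, yet the log2 fold changes of −0.21, −0.24 and 0.15 had limma adjusted p-values of 0.718, 0.642 and 0.770. Of the 11 tested genes, 1 was higher without overlap (9.09%, against 25.6% of all genes) and 2 were lower (18.2%, against 21.8%). Snrpf shares 89.5% of its windows with other genes, so its values are uncertain.

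U2AF recognizes the 3′ splice site, with a large subunit on the pyrimidine tract (U2af2) and a small subunit on the AG (U2af1). U2af2 had 72.5 and 64.4 FPKM in WT LICs against 81.0 and 70.5 in CD274-null LICs, and 29.9% of its windows occur in other genes. U2af1 had 28.0 and 16.2 against 29.5 and 19.0 FPKM, a difference of 0.15 on the log2 scale that is smaller than the spread within each group. U2af1l4, a paralog of the small subunit, had 28.0 and 22.4 against 29.6 and 31.8 FPKM (0.29, limma adjusted p = 0.590). Of its windows, 97.2% occur in other genes, most often in the gene model Gm49396, and 59.4% of those of U2af1 do, most often in Gm10232, so the values of both are uncertain.

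The libraries of a group differed among themselves in a way that touches many of these genes together. Of the 67 genes, WT replicate 1 was the highest library for 27 (40.3%, against 23.9% of all genes tested) and WT replicate 2 the lowest for 29 (43.3%, against 24.2%), and the median log2 difference between them was 0.24 (−0.06 over all genes). CD274-null replicate 1 was the lowest library for 0 of the 67 (8.57% of all genes), and its median log2 difference to replicate 2 was 0.18 (0.14 over all genes). The GC content of the transcripts, with a median of 45.5% (49.8% over all), had a Spearman's rho with the log2 fold change of −0.072 over the 67 genes and 0.271 over 11435 genes, correlations across genes of the same libraries that are given as descriptions.

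The rest of the splicing pathway was described by lists of other genes. Of 38 spliceosome proteins outside the name rule, 1 was a candidate (2.63%, against 3.63% of all genes), 5 had an unadjusted p under 0.05 (13.2%, against 13.7%), 4 of them lower and 1 higher, and the median log2 fold change was −0.06, with 12 above 0 and 26 below. Snrnp200 (chromosome 2, 127208386 to 127240453), the U5 helicase that unwinds U4 from U6 and sits on the Prpf8 protein, had 72.4 and 61.0 FPKM in WT LICs against 40.7 and 36.1 in CD274-null LICs, and fell by 0.78 on the log2 scale (SE 0.21, limma adjusted p = 0.274). Its values followed the same order over the libraries as those of Prpf8, but also of Hnrnpul1, Prpf18, Snrpb2 and others. How often this order occurs over all genes was not counted. In 10 Lsm proteins, 9 proteins of the minor spliceosome and 16 proteins of Sm core assembly and snRNP transport, 0 genes were candidates; 0, 1 and 1 of them had an unadjusted p under 0.05 by limma (0%, 11.1% and 6.25%, against 13.7% of all genes), and the medians were 0.12, 0.16 and 0.04.

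Among the 9 kinases and import factors of SR proteins, the median log2 fold change was 0.44, 5 genes were higher without overlap (55.6%, against 25.6% of all genes) and 1 was lower (11.1%, against 21.8%), and 1 was a candidate (11.1%, against 3.63%). Clk4 (chromosome 11, 51263114 to 51281770), a CDC-like kinase that phosphorylates SR proteins, had 53.1 and 54.4 FPKM in WT LICs against 86.0 and 93.1 in CD274-null LICs, and rose by 0.73 on the log2 scale (SE 0.20, limma adjusted p = 0.274). Of 41 other splicing regulators, 10 had an unadjusted p under 0.05, 7 higher and 3 lower (24.4%, against 13.7% of all genes), and 1 was a candidate (2.44%, against 3.63%), with a median of 0.05. Qk (chromosome 17, 10206471 to 10319361), the RNA-binding protein Quaking, had 21.8 and 24.6 against 13.6 and 10.9 FPKM and fell by 0.90 on the log2 scale (SE 0.24, limma adjusted p = 0.274). Of the 10 genes of nonsense-mediated decay, which degrades the transcripts that self-regulating splicing factors make, 0 were candidates and 0 had an unadjusted p under 0.05 by limma, and the median was 0.04. Clk4, Qk and Snrnp200 were candidates in 8, 9 and 8 of 17 fits, and their direction was the same in each.

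**Figure D4:**
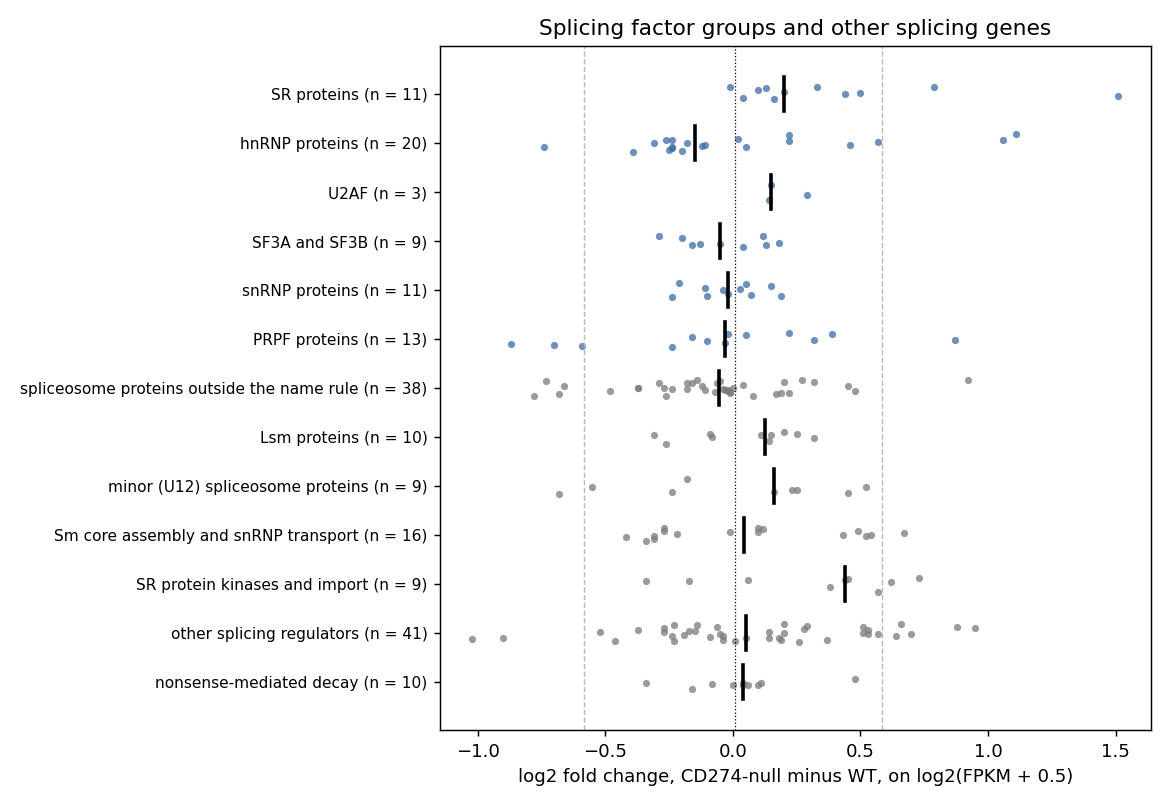
Log2 fold change (CD274-null minus WT, on log2(FPKM + 0.5)) of every tested gene in the 6 splicing factor groups (blue) and in 7 lists of other splicing genes (grey); the black bar is the median, the dotted line the median over all genes tested and the dashed lines 1.5-fold. The medians of the splicing factor groups lie between −0.15 and 0.20, and that of the SR protein kinases and import factors at 0.44.

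A value per gene sums all of its transcripts. The table therefore does not show which isoforms were made, whether exons that lead to decay were included or whether introns were kept, and splicing itself was not measured in these values.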

How the data were processed

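RNA was measured in 4 libraries of sorted LICs, 2 WT and 2 CD274-null, grouped by their labels. Per the labels, the authors used CASAVA 1.8.2 and TopHat2 2.0.12 on GRCm38 and deposited FPKM per gene in each library on a linear scale; the gene lengths, counting tool and strand setting are not given in the sources used here. Genes are listed by NCBI number, and 25275 of 27179 were named from RefSeq (GRCm38.p6). Whole reads, up to a common factor, were recovered from the FPKM steps for 100% of the 17083 genes with a value in 2 or more libraries (tolerance 0.002), and summed to 11048767, 9740856, 8452662 and 9520926; they set the precision of each value and are lower bounds where all 4 libraries share a factor.

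The groups were compared in limma 3.58.1 under R 4.3.3 (eBayes with trend, no covariates). It was fitted to log2(FPKM + 0.5) over 13230 genes whose mean was at least 0.5 FPKM, with Benjamini-Hochberg adjustment over all of them; the fit was tested on simulated data. The statistics section of the study gives Student's test as its general method and does not mention the RNA-seq candidates; its thresholds for candidates were used. No set test was run. Shared windows are the 50-base stretches of a gene's longest protein-coding GENCODE transcript found in transcripts of other genes, computed in Python 3.11.15. Genes named are those that were candidates or had a p under 0.05, in each group the highest, the lowest and the 3 largest changes without overlap, genes below the filter, 3 paralog pairs, and candidates of the lists; Hnrnpf, Hnrnpk, Hnrnpu, Hnrnpul2, Sf3b1, U2af2, Srsf11 and other genes of a group were added for context after their values were seen. A gene that this rule names and a marker are not reported here. The genes, lists and markers were chosen with earlier results of these data known. Alternatives were other pseudocounts, filters, scalings and variance models, voom, a GC correction (loess, span 0.3), a replicate block and leaving out each library.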

Additional observations from a re-analysis of the deposited data

How the results depend on the processing

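The number of splicing factor candidates, 2 of 67, was 1 with a mean of at least 5 FPKM as the filter (Hnrnph3), 0 in a linear model without moderation and between 0 and 1 when a library was left out. It was 1 without WT replicate 1 (Hnrnph3), 0 without WT replicate 2, 1 without CD274-null replicate 1 (Srsf12) and 0 without CD274-null replicate 2. Without a filter it was 3 (Hnrnph3 and Srsf12 among them), with voom 3 (Hnrnph3, Hnrnph1 and Srsf12), and with the GC correction 3 (Hnrnph3 and Hnrnpul1 among them). The count over all genes, 480, was 170 without moderation and between 147 (without CD274-null replicate 2) and 634 (without WT replicate 2) when a library was left out, and 235 without CD274-null replicate 1. The median log2 fold change of the 67 genes, 0.03, lay between −0.14 (without CD274-null replicate 1) and 0.14 (without CD274-null replicate 2). Where 1 library is left out, the lone library of its group was taken to vary like the others.

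The groups share replicate numbers, but deviations of same-numbered libraries had a correlation of −0.0151 over all genes tested and 0.0297 over the splicing factors, so the numbers were not taken as pairs. With the replicate block, 1 splicing factor (Hnrnph3) and 526 genes were candidates, and with the block and the GC correction 2 splicing factors were (Hnrnph3 and Hnrnpul1). Prpf18 no longer had an unadjusted p under 0.05 with the block. A tally covered 17 genes, those with an unadjusted p under 0.05 or among the largest changes without overlap in their group. Srsf12 could not be tested with a mean of at least 5 FPKM. Of 203 results from 4 libraries, 190 kept their direction and side of the candidate thresholds, and 0 reversed. Of 68 results from 3 libraries, 0 reversed. Several of these genes lay far from the thresholds, and losing an unadjusted p under 0.05 was not counted as a change. Only 2 libraries stand in each group, so limma takes most of its estimate of spread from the other genes. The cause of these changes was not tested.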
